A study of Sorghum bicolor with 34 samples.

Results

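Of the 47110 sorghum transcript IDs measured in each library, 53 (0.113%) were high in the apex of the primary root and in the apex of lateral roots and low in the elongation zone of the primary root. A transcript was taken when its lowest level over the 6 apical libraries was at least 2 TPM (kallisto's level of a transcript, corrected for transcript length and for the library's total) and at least 3 times its highest level over the 4 elongation zone libraries. The lowest level in the root apex also had to be under 2 times the highest in the lateral apex, and the reverse. The first condition alone held for 11893 transcripts, adding the second left 54, and the last removed 1 more, so that all transcripts passing the rule are described and a limit of 200 was not reached. Since measured levels chose the members, their difference between apices and elongation zone is a description and carries no test.

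The libraries are poly(A) RNA-seq of the sorghum line BTx623, from plants harvested after 10 days on 45 μM phosphate (sufficient phosphorus, SP) or on 2.5 μM phosphate (limiting phosphorus, LP). The root apex was the first 2 cm of the seminal (primary) root, the elongation zone the next 2 cm, and the lateral root apex the first 2 cm of lateral roots, each with 10 plants pooled in a library. The root apex and the elongation zone have 2 libraries at each phosphorus level, and the lateral root apex has 1 at each level. The labels call the elongation zone the intermediate root, and the tissue label of root apex LP replicate 2 names the whole root although its title names the root apex. The file deposited for lateral root apex SP carries replicate number 2 in its name although the label of the library says replicate 1, and the library was taken as labelled.

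A growing root adds cells at its tip, where a meristem under the root cap divides, and the cells left behind elongate and then differentiate. Lateral roots start from inner cells of the parent root and build a tip of the same plan, so a gene used by a root tip can be active in both kinds of apex. Phosphate is taken up at the root surface, and plants commonly change the growth of primary and lateral roots when it is scarce. A 2 cm segment holds the tip together with elongating and older tissue, and in such bulk samples fewer cells of a type and less RNA per cell cannot be told apart.

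Libraries held 10114584 to 19067049 estimated counts. Between 28206 and 36756 transcripts had a count above 0, with the fewest in elongation zone LP replicate 2 (28206) and lateral root apex SP (28416) and at least 31840 in each of the other 8. The effective lengths in the files correspond to a median fragment of 167 to 169 bases in both replicate 2 libraries of the elongation zone and both lateral libraries, and of 185 to 190 bases in the other 6. The elongation zone libraries set the upper limit of the rule, and 24 of the 53 transcripts reached their highest elongation zone level in LP replicate 2. Without that library the rule would have taken 98 transcripts, all 53 among them. Without lateral root apex SP it would have taken 62, of which 46 are among the 53, and without lateral root apex LP 53, of which 45 are.

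The 2 fixed lists of annotated transcripts were used to look at the tissues, and the names of the lists are broad. The dividing-cell and chromatin list took MAP65, cyclin, DNA topoisomerase, SNF2, BAH, chromo, BP28 and RCC1 domain names and a set of Arabidopsis matches. The uptake and differentiated-root list took haem peroxidase, oligopeptide transporter, sucrose synthase and glycoside hydrolase names and another set of matches. Not every entry is particular to dividing or to differentiated cells. Of 27 tested transcripts that match dividing-cell and chromatin proteins, 2 were higher in the apices than in the elongation zone and 4 were lower (edgeR quasi-likelihood test, Benjamini-Hochberg adjusted p under 0.05), with a median log2 fold change of -0.69 against -0.29 over all 33039 tested transcripts. Of those 2, EER90980 is among the 53 and was chosen on this difference, which leaves 1 of 26, EER92583, whose call was lost in 8 of 13 alternatives. Over all tested transcripts 14.3% were called in this comparison, 5.99% higher and 8.28% lower. Of 24 tested transcripts that match uptake and differentiated-root proteins, 4 were higher in the apices and 3 lower, with a median of -1.06. Both medians lay below that over all tested transcripts. For the lateral against the root apex the dividing-cell and chromatin list had a median of -1.31, against -0.20 over all tested, and the uptake list 0.91. The value of the dividing-cell and chromatin list against the elongation zone therefore rests in part on low levels in the lateral apex, which has 1 library per phosphorus level. Detection in the lateral libraries also moved with transcript length, as given below, and the part of length in these medians was not tested. No cell type is named for the 53 transcripts. Only 775 of the IDs (1.65%) are paired with a gene in the tables used here, and of the 53 transcripts 1 (1.89%) is.

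That transcript, EER90980 of gene SORBI_3001G112100, is matched to Arabidopsis AT2G01910, a member of the MAP65 family, whose proteins cross-link neighbouring microtubules in Arabidopsis. Its TPM was 44.9 and 50.6 in the root apex at SP, 23.1 and 33.5 at LP, 25.6 in the lateral root apex at SP and 18.4 at LP. In the elongation zone it was 2.75 and 2.25 at SP and 3.50 and 4.19 at LP. The root apex and lateral ranges overlapped, and every apical library was above every elongation zone library, as the rule requires. Under LP the level was lower in both kinds of apex and higher in the elongation zone, without overlap wherever there were replicates. None of these LP differences passed the test across all transcripts: in the root apex the log2 fold change was -0.54 (SE 0.374, adjusted p = 0.771, edgeR), -0.96 (SE 0.533, adjusted p = 0.357) for lateral roots and 0.97 (SE 0.39, adjusted p = 0.323) in the elongation zone. The log2 response in the elongation zone minus that over both apices was 1.71 (SE 0.508, adjusted p = 0.187, edgeR).

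Other transcripts matched to MAP65 proteins did not share this distribution. EER92583, also matched to AT2G01910, had 16.5 and 13.2 TPM in the root apex at SP, 9.34 and 5.17 at LP, 4.23 and 10.2 in the lateral apex at SP and LP, and 2.60 to 8.48 in the elongation zone. Its levels in the regions overlapped, although the fitted difference between apices and elongation zone was 1.46 on the log2 scale (SE 0.336, adjusted p = 0.0331, edgeR), a call that was lost in limma on TPM (adjusted p = 0.124), with the replicate block and without any 1 of several libraries. EER98994, the third transcript matched to AT2G01910, went the other way. It had 60.9 and 66.7 TPM in the root apex at SP, 16.8 and 19.6 at LP, 45.2 and 29.2 in the lateral apex, and 98.6 to 219 in the elongation zone, with no overlap between apices and elongation zone (log2 fold change -1.29, SE 0.186, adjusted p = 0.00851, edgeR). It was also the 1 transcript of the dividing-cell and chromatin list called under LP over both apices, where it fell by 1.36 on the log2 scale (SE 0.249, adjusted p = 0.0452, edgeR). OQU92942 of the same gene as EER92583, SORBI_3001G442800, and OQU87349, matched to AT3G60840, were not called between apices and elongation zone (adjusted p = 0.174 and 0.14, edgeR). Reads that fit more than 1 such transcript are shared out by the quantification, so the split between related transcripts is uncertain.

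**Figure D1:**
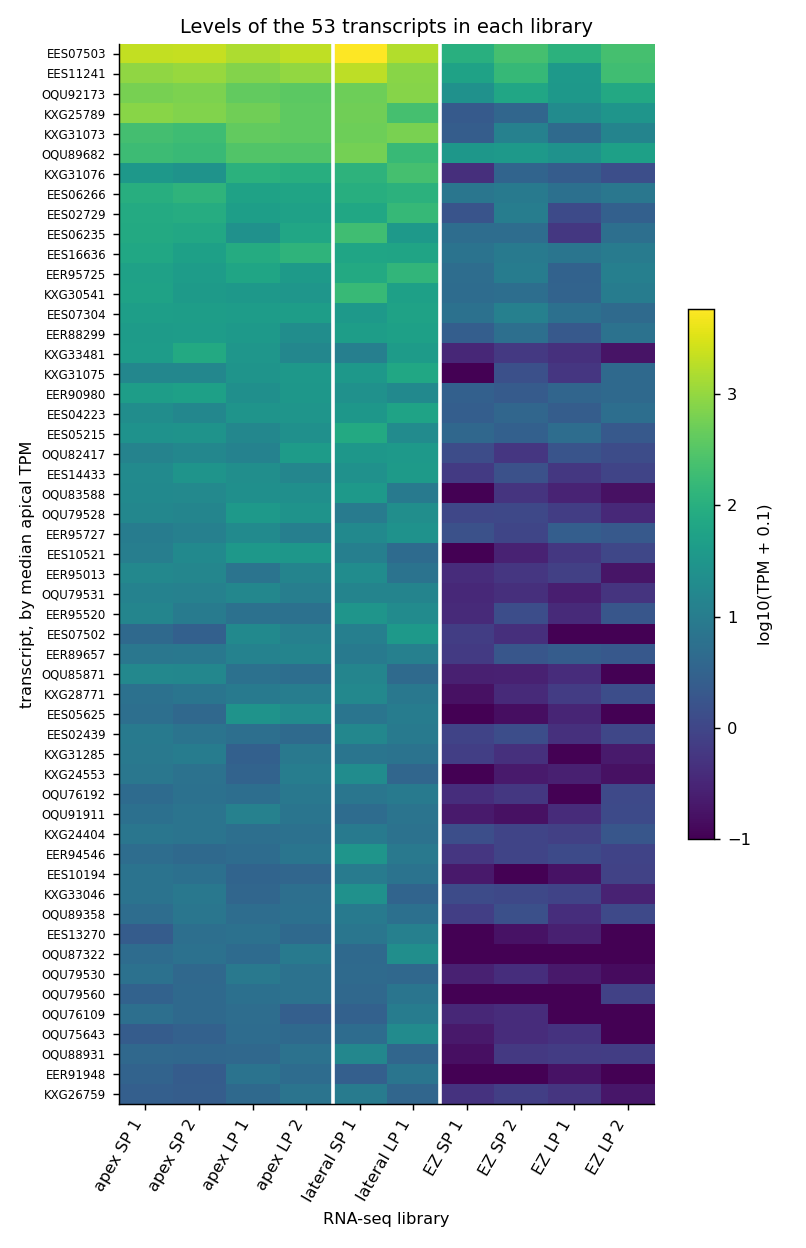
Level of each of the 53 transcripts (rows, ordered by median TPM over the 6 apical libraries) in each of the 10 RNA-seq libraries (columns), as log10(TPM + 0.1) on a colour scale. White lines separate the root apex (apex), the lateral root apex (lateral) and the elongation zone (EZ). The 6 apical columns are brighter than the 4 elongation zone columns in every row, as the rule requires, and 1 row, OQU87322, is at 0 in all 4 elongation zone libraries.

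The 53 transcripts covered a wide range of levels. Their median TPM over the 6 apical libraries ran from 3.88 to 2034, with 7 transcripts at 100 TPM or more, 25 from 10 to 100 and 21 under 10. The mean level in the elongation zone was a median of 4.99% of the mean apical level, and at most 16.8%. There were 37 transcripts with reads in all 4 elongation zone libraries and 16 at 0 TPM in at least 1 of them, so most of the 53 were low rather than undetected there. The summed TPM of the 53 was 4855 to 5973 in the root apex libraries, 11401 in lateral root apex SP and 5800 in lateral root apex LP. In the elongation zone it was 281 and 292 in both replicate 1 libraries (SP and LP) and 600 and 694 in both replicate 2 libraries.

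In the elongation zone these transcripts tended to be higher in replicate 2 than in replicate 1. Of the 53, 39 (73.6%) were higher in SP replicate 2 than in SP replicate 1, against 42.0% of all tested transcripts and 51.0% of the 11893 at 2 TPM or more in every apical library. At LP the share was 56.6%, against 27.6% and 35.1%. The median log2 ratio of replicate 2 to replicate 1 was 0.59 at SP and 0.45 at LP for the 53, and 0.01 and -0.30 for the 11893. The shorter fragments of both replicate 2 libraries moved with this difference, and their part in it was not tested.

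EES07503 was the most abundant of the 53. It measured 2067 and 2203 TPM in the root apex at SP, 1474 and 2001 at LP, 5773 in the lateral apex at SP and 1648 at LP, and 101, 231, 113 and 232 in the elongation zone (SP replicates 1 and 2, then LP). Lateral root apex SP stood above all other libraries, and in the root apex both LP libraries were below both SP libraries. This 1 transcript held 30.4% to 36.9% of the summed TPM of the 53 in the root apex libraries, 50.6% in lateral root apex SP and 28.4% in lateral root apex LP. Without it the sums were 3381 to 3770 in the root apex, 5628 and 4152 in the lateral apex at SP and LP, and 178 to 462 in the elongation zone. Its LP response did not pass the test in either apex (log2 fold change -0.08, SE 0.621, adjusted p = 1 in the root apex and -2.29, SE 0.92, adjusted p = 0.226 in the lateral apex, edgeR).

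EES11241 followed a similar order. Its TPM was 955 and 1048 in the root apex at SP, 755 and 992 at LP, 1967 and 836 in the lateral apex at SP and LP, and 35.3 to 199 in the elongation zone. SP and LP overlapped in the root apex, and lateral root apex SP was again highest. OQU92173 had 608 and 651 TPM in the root apex at SP and 408 and 372 at LP, where the levels did not overlap, and 523 and 792 in the lateral SP and LP libraries, with 25.6 to 73.6 in the elongation zone. The edgeR log2 fold change of OQU92173 was -0.51 in the root apex (SE 0.617) and 0.12 in the lateral apex (SE 0.869), and neither was called. EES07503, EES11241, OQU92173 and KXG25789, described next, made up 60.4% to 77.3% of the summed TPM of the 53 in every library.

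KXG25789 was the only 1 of the 53 called in any LP comparison made by edgeR, and it was called in the elongation zone, where it is low. Its TPM in the elongation zone was 2.09 and 3.60 at SP and 19.7 and 30.9 at LP. In the root apex it was 809 and 713 at SP and 530 and 386 at LP, and in the lateral apex 541 at SP and 227 at LP. The SP and LP libraries did not overlap in either replicated region, but LP was the higher in the elongation zone and the lower in the apices. The log2 fold change in the elongation zone was 3.48 (SE 0.49, adjusted p = 0.0429, edgeR), against -0.58 (SE 0.428, adjusted p = 0.795) in the root apex and -1.73 (SE 0.621, adjusted p = 0.184) in the lateral apex. The response in the elongation zone minus that over both apices, a comparison added after the values were seen, was 4.64 on the log2 scale (SE 0.615, adjusted p = 0.0501, edgeR). The call in the elongation zone rests on these few libraries: the adjusted p was 0.0536 with the replicate block, and it was above 0.05 without any 1 of the root apex libraries, either elongation zone SP library or elongation zone LP replicate 2, with a log2 fold change of 2.78 to 3.99. DESeq2 and limma made the call.

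**Figure D2:**
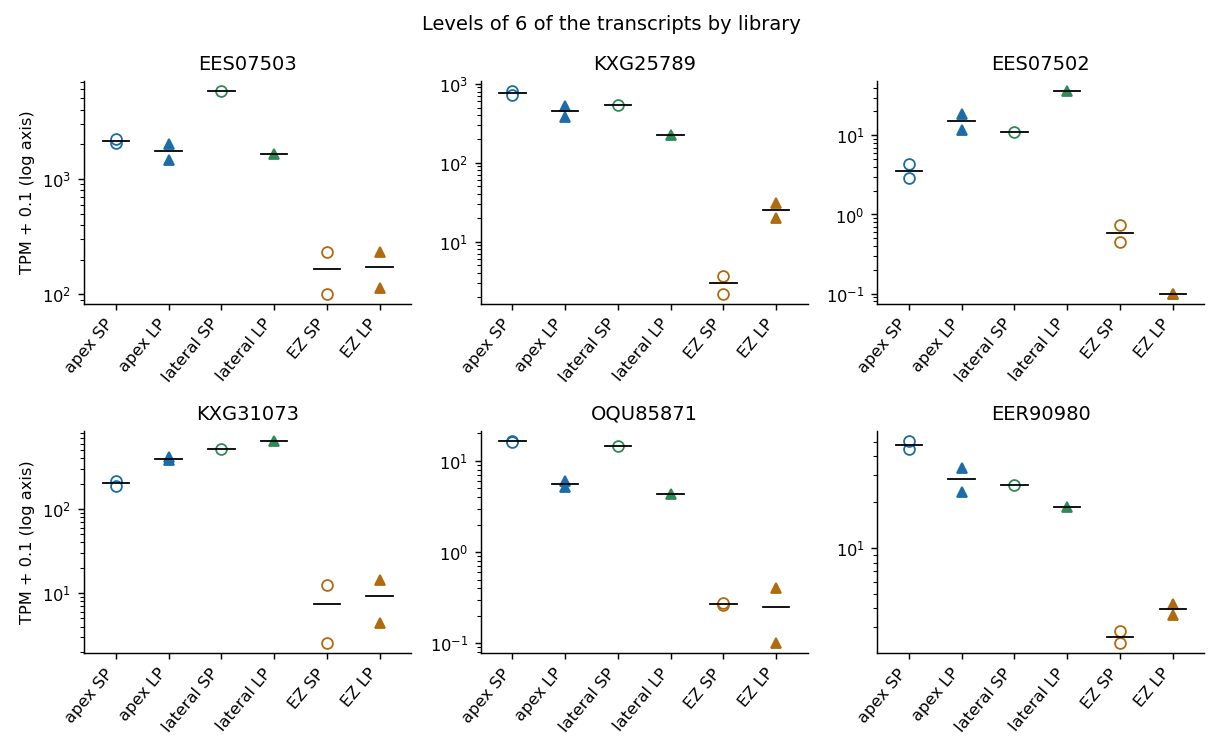
TPM + 0.1 on a log axis for 6 of the transcripts, with each panel on its own scale. Points are libraries (open circles SP, filled triangles LP) and black bars are group means, over 2 libraries in the root apex (apex) and elongation zone (EZ) and the single library in the lateral root apex. KXG25789 and EER90980 are lower at LP in the apices and higher at LP in the elongation zone, while EES07502 is higher at LP in both apices and at 0 in both LP libraries of the elongation zone.

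Across the 53 transcripts few LP differences passed the test. In the root apex 0 were called by edgeR, where 0.218% of all tested transcripts were called, with 4 at an unadjusted p under 0.05 (7.55%, against 9.41% of all tested). In the lateral root apex 0 were called (1.78% of all tested), with 9 at an unadjusted p under 0.05 (20.5% of all tested). Over both apices 0 were called (2.51% of all tested), with 6 at an unadjusted p under 0.05 (20.4% of all tested). In the elongation zone KXG25789 was the 1 called (0.648% of all tested), with 10 at an unadjusted p under 0.05 (14.6% of all tested). DESeq2 called 2, 7, 5 and 3 of the 53 in that order, where it called 3.5%, 11.9%, 11.4% and 6.6% of all tested transcripts. With elongation zone LP replicate 1 or 2 left out, 5 were called in the lateral apex and 7 over both apices, while 9.32% and 8.82% of all tested transcripts were then called in the lateral apex and 9.31% and 8.92% over both apices. A transcript below 2 TPM in an apical library at either phosphorus level could not be among the 53. Losses at LP that ended under 2 TPM in an apex, and gains at LP from under 2 TPM at SP, were therefore both left out by the rule.

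The libraries themselves separated more often than the tests called. Of the 53, 39 (73.6%) had no overlap of the SP and LP libraries in the root apex in TPM, against 43.1% of all tested transcripts and 47.0% of the 11893 at 2 TPM or more in every apical library. LP was above SP in 19 (35.8%, against 13.0% of all tested) and below it in 20 (37.7%, against 30.1%). The single lateral LP library was above the SP library in 26 of the 53 (49.1%), against 62.0% of all tested transcripts. TPM and the TMM scale that edgeR uses differ: for the 11893 transcripts the edgeR value was a median of 0.18 higher than the log2 difference in TPM + 1 for LP in the root apex, 0.46 lower for LP in the lateral apex and 0.31 higher for LP in the elongation zone. The median over the 53 of the LP response over both apices was -0.19 in edgeR and 0.02 in limma on log2(TPM + 1), so its sign depends on the scale.

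On the edgeR scale the median log2 response of the 53 to LP was 0.28 in the root apex and -0.51 in the lateral root apex, against 0.00 and 0.05 over all tested transcripts. For the 11893 transcripts at 2 TPM or more in every apical library these medians were 0.09 and 0.01. The lateral response minus the primary response had a median of -0.86, against 0.27 over all tested and -0.04 over the 11893. It was negative for 43 of the 53, against 14143 of all 33039 tested and 6095 of the 11893. In limma on log2(TPM + 1) the corresponding medians were 0.06, -0.03 and -0.17 for the 53 and -0.11, 0.26 and 0.45 over all tested. The difference itself was called by edgeR for 0 of the 53 (0.505% of all tested), with 9 at an unadjusted p under 0.05 (16.2% of all tested). DESeq2 called it for 6 of the 53 and for 6.63% of all tested transcripts. The lowest adjusted p of this difference in edgeR, 0.135, belonged to OQU89682. That transcript had 187 and 166 TPM in the root apex at SP and 296 and 299 at LP, and 583 and 160 in the lateral apex at SP and LP, with 26.6 to 50.0 in the elongation zone. It was higher at LP in the root apex without overlap and lower in the lateral LP library, with a difference of -3.28 on the log2 scale (SE 0.799, edgeR). KXG33481 lay the opposite way, with 42.8 and 76.5 TPM in the root apex at SP, 32.1 and 15.6 at LP, and 11.1 and 41.4 in the lateral apex (difference 2.63, SE 0.891, adjusted p = 0.228, edgeR). The lateral values are 1 library per level, and lateral root apex SP is 1 of both libraries with the fewest transcripts detected.

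**Figure D3:**
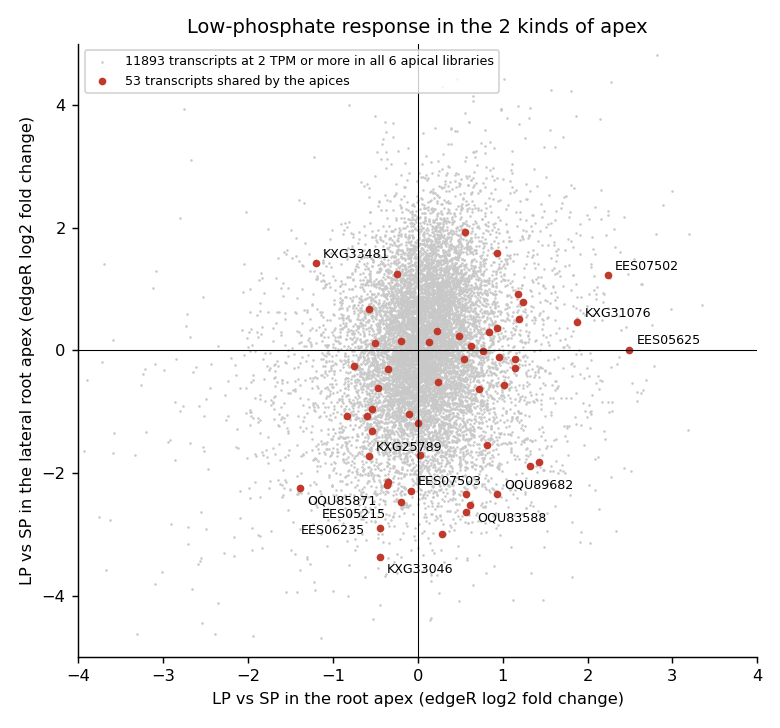
Log2 fold change of LP over SP from edgeR in the root apex (horizontal) and in the lateral root apex (vertical). Red points are the 53 transcripts and grey points the 11893 transcripts at 2 TPM or more in all 6 apical libraries, of which those beyond the axes are not drawn. The red points spread to both sides in the root apex and lie mostly below 0 in the lateral apex, with a median of 0.28 and -0.51, and the lateral values rest on 1 library per level.

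To choose which transcripts to name, the root apex libraries with the same replicate number were compared, although the numbers are not shown to pair them. By that choice 13 transcripts were higher at LP in both comparisons and in the lateral LP library (24.5%, against 11.3% of all tested transcripts), and 15 were lower in all 3 (28.3%, against 14.3%). Of the 53, 12 (22.6%, against 8.66% of all tested transcripts) had both root apex LP libraries above both SP libraries together with a higher lateral LP library, and 14 (26.4%, against 12.7%) had the reverse. Among the 13, the highest log2 fold change over both apices was that of EES07502. It had 4.20 and 2.75 TPM in the root apex at SP and 18.5 and 11.6 at LP, and 11.02 and 36.0 in the lateral apex at SP and LP. In the elongation zone it had 4 counts in each SP library and 0 in each LP library. LP was above SP without overlap in the root apex, and the direction was the opposite in the elongation zone at a very low level. The log2 fold change over both apices was 1.74 (SE 0.4, adjusted p = 0.0851, edgeR) and was called by DESeq2 (adjusted p = 0.0203) and limma (adjusted p = 0.0452). EES07502 carries the accession number just before that of EES07503, the most abundant of the 53, which was lower at LP.

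EES05625 had the highest LP fold change of the 53 in the root apex, with 5.31 and 4.02 TPM at SP and 27.4 and 19.8 at LP, beside 7.14 and 10.0 in the lateral apex. In edgeR the root apex gave a log2 fold change of 2.49 (SE 0.683, adjusted p = 0.265) and the lateral apex 0.01 (SE 0.913). The values of this transcript lay far apart in 1 kind of apex, and the difference between the apices was not called (adjusted p = 0.348). The rest of the 5 highest were OQU75643, KXG31076 and EER91948, with log2 fold changes over both apices of 1.26, 1.17 and 1.05 and adjusted p of 0.39, 0.301 and 0.374 (edgeR). OQU75643 went from 4.78 to 20.1 TPM in the lateral apex, and from 2.38 and 2.86 to 4.72 and 4.14 in the root apex. EER91948 went from 3.11 and 2.38 to 6.35 and 4.82 TPM in the root apex and from 2.66 to 7.03 in the lateral apex, and had 1 count in all over the 4 elongation zone libraries. No gene is paired with any of these IDs.

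Among the 15, the lowest log2 fold change over both apices was that of KXG33046, which was also the transcript nearest to the threshold of the rule. Its TPM was 6.36 and 7.96 in the root apex at SP, 3.59 and 5.37 at LP, 24.99 in the lateral apex at SP and 3.38 at LP, with 0.18 to 1.11 in the elongation zone. Its log2 fold change was -1.91 (SE 0.479, adjusted p = 0.0882, edgeR), and most of it came from the lateral pair (-3.37, SE 0.816, adjusted p = 0.0868) rather than the root apex (-0.45, SE 0.533, adjusted p = 0.925). In TPM OQU85871 was lower by a like amount in both kinds of apex, with 16.4 and 16.2 TPM at SP and 5.96 and 5.06 at LP in the root apex and 14.6 and 4.27 in the lateral apex. Its edgeR log2 fold change was -1.39 (SE 0.674) in the root apex and -2.25 (SE 0.975) in the lateral apex. Its SP libraries lay close together in both kinds of apex, as did its LP libraries (log2 fold change over both apices -1.82, SE 0.596, adjusted p = 0.154, edgeR; 0.0162 in DESeq2 and 0.0429 in limma).

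EES06235, EES05215 and EER95013 completed the 5 lowest. EES06235 had 77.8 and 71.8 TPM in the root apex at SP, 25.1 and 66.4 at LP, and 198 and 37.1 in the lateral apex at SP and LP, so that both LP replicates of the root apex lay far from each other (log2 fold change over both apices -1.67, SE 0.848, adjusted p = 0.325, edgeR). EES05215 went from 27.1 and 27.3 to 16.1 and 24.5 TPM in the root apex and from 79.3 to 19.9 in the lateral apex (-1.34, SE 0.344, adjusted p = 0.0934). EER95013 went from 16.5 and 15.1 to 6.55 and 14.1, and from 20.8 to 6.32 (-1.28, SE 0.612, adjusted p = 0.297). In these 3 transcripts both root apex LP libraries were below both SP libraries, and the larger difference was in the lateral pair.

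Opposite LP directions in the apices and the elongation zone, without overlap in the replicated regions, were seen in 4 of the 53. KXG25789 and EER90980 were lower at LP in the apices and higher at LP in the elongation zone (3.77% of the 53, against 1.89% of all tested transcripts). EES07502 and OQU79528 were higher at LP in the apices and lower in the elongation zone (3.77%, against 1.90%). OQU79528 had 16.1 and 14.5 TPM in the root apex at SP, 37.3 and 27.6 at LP, 9.27 and 22.3 in the lateral apex, and 0.92 and 0.99 at SP and 0.64 and 0.26 at LP in the elongation zone. The difference in response between elongation zone and apices was called by edgeR for 0 of the 53 (0.269% of all tested), with 12 at an unadjusted p under 0.05 (16.7% of all tested). DESeq2 called it for 5 of the 53 and for 6.96% of all tested transcripts.

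The levels in the 2 kinds of apex were limited by the rule and are given as a description, without a test. Both lateral libraries had median fragments of 168 and 169 bases, and the 4 root apex libraries 185 to 190. Kind of apex and fragment length therefore cannot be told apart in these levels. The mean TPM was higher in the lateral than in the root apex for 41 of the 53, within 2 times of it for 39, over 2 times higher in the lateral apex for 13 and over 2 times higher in the root apex for 1. The median log2 ratio of the means was 0.59, against -0.53 for the 11893 transcripts at 2 TPM or more in every apical library. Both lateral libraries were above all 4 root apex libraries in 10 of the 53 (18.9%, against 6.47% of all tested) and below all 4 in 0 (30.5% of all tested). Over all tested transcripts edgeR called 10.4% between the kinds of apex, and its 5 calls among the 53 are read as nothing more, since the rule bounds these levels. For the lateral against the root apex the edgeR value was a median of 0.62 higher than the log2 difference in TPM + 1 over the 11893 transcripts. The highest of the 6 apical libraries was lateral root apex SP for 19 of the 53 and lateral root apex LP for another 19.

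EER94546, picked after its values were seen, had the highest ratio of lateral to root apex mean, with 4.21 to 7.05 TPM over the 4 root apex libraries and 29.9 and 8.20 in the lateral apex at SP and LP. KXG31076 had 35.1 and 28.4 TPM in the root apex at SP, 111 and 96.6 at LP, and 117 and 225 in the lateral apex at SP and LP. Its lateral values were above all root apex values, and LP was above SP in both kinds of apex.

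Of the 53, 10 carry an accession number within 3 of that of another member. Their positions in the genome were not used here, and reads may be shared between them where their sequences are alike. KXG31073, KXG31075 and KXG31076 have lengths of 723, 752 and 716 bases. KXG31073 had 217 and 190 TPM in the root apex at SP, 413 and 382 at LP, 511 and 646 in the lateral apex at SP and LP, and 2.42 to 14.1 in the elongation zone. KXG31075 had 16.0 and 16.1 at SP, 29.5 and 34.2 at LP, 35.0 and 69.8 in the lateral apex and 0 to 4.07 in the elongation zone. In TPM all 3 were higher at LP than at SP in the root apex without overlap and higher in the lateral LP library. The edgeR log2 fold changes in the root apex were 1.14 for KXG31073 (SE 0.803) and 1.88 for KXG31076 (SE 0.665), neither called (adjusted p = 0.773 and 0.42), and that of KXG31073 in the lateral apex was -0.14, of the other sign than in TPM.

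OQU79528, OQU79530 and OQU79531 form another run. OQU79530 had 5.81 and 3.95 TPM in the root apex at SP, 8.36 and 6.18 at LP, 4.41 and 3.94 in the lateral apex and 0.04 to 0.33 in the elongation zone. OQU79531 was nearly level over the apices, at 10.9 to 16.0 TPM in the root apex, 14.1 and 13.8 in the lateral apex and 0.15 to 0.43 in the elongation zone. Of the 3, OQU79528 was higher at LP in both kinds of apex without overlap in the root apex, and the SP and LP libraries of OQU79531 overlapped there. IDs in the same run that missed the rule, picked after their values were seen, had a like distribution: OQU79527 had 2.90 to 18.1 TPM over the apical libraries and up to 1.02 in the elongation zone, and OQU79529 had 9.96 to 28.8 and up to 3.89. OQU79525 had 29.0 to 101 TPM over the apical libraries and 4.08 to 12.5 in the elongation zone. In each of these 3 the highest elongation zone library was LP replicate 2.

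EER95725 and EER95727 are the remaining pair. EER95725 had 53.4 and 42.7 TPM in the root apex at SP, 63.0 and 39.6 at LP, 79.3 and 137 in the lateral apex, and 3.08 to 11.5 in the elongation zone. EER95727 had 9.74 and 11.8 at SP, 18.96 and 11.3 at LP, 18.1 and 26.4 in the lateral apex and 0.87 to 2.60 in the elongation zone. Both overlapped between SP and LP in the root apex and were higher in the lateral LP library than in the lateral SP library.

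The transcripts with the highest ratio of the lowest apical level to the highest elongation zone level were OQU87322, OQU79531, KXG33481, OQU83588, EER91948, KXG31073, EES05625, KXG24553, OQU85871 and EES14433. OQU87322 had 0 counts in all 4 elongation zone libraries and 545 over the 6 apical libraries, which is at least 124-fold higher in the apices after division by the library totals, with the elongation zone set at 3 counts over its 4 libraries. Lateral root apex LP gave 260 of these counts, and without that library the bound is 79.3-fold, from 285 counts. Its TPM was 4.74 and 5.98 in the root apex at SP, 4.54 and 8.74 at LP, 4.15 in the lateral apex at SP and 22.1 at LP. SP and LP overlapped in the root apex, and the lateral LP library stood above the other 5. OQU83588 had 17.1 to 23.9 TPM in the root apex, 35.6 and 8.57 in the lateral apex and 0 to 0.42 in the elongation zone. KXG24553 had 3.20 to 10.5 TPM in the root apex, 20.7 and 3.59 in the lateral apex and 0 to 0.16 in the elongation zone. EES14433 had 15.2 to 28.7 TPM in the root apex, 24.99 and 39.0 in the lateral apex and 0.49 to 1.39 in the elongation zone.

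Among the abundant transcripts not yet described, EES06266 had 97.6 and 122 TPM in the root apex at SP and 54.5 and 59.6 at LP, without overlap, and 98.4 and 115 in the lateral apex. EES02729 had 81.7 and 87.4 at SP and 46.2 and 53.1 at LP in the root apex, again without overlap, and 68.8 and 152 in the lateral apex. Both were lower at LP in the root apex and higher in the lateral LP library, and neither LP difference was called in either apex (adjusted p = 0.626 and 0.956 in the root apex, 0.857 and 0.809 in the lateral apex, edgeR).

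The threshold of the rule ran through a continuous range. The transcripts just inside were KXG33046, EES04223 and KXG24404, whose lowest apical level was 3.05, 3.09 and 3.09 times the highest elongation zone level. Just outside were KXG27231, KXG25775 and OQU79527, at 2.95, 2.89 and 2.83 times. KXG27231 had 329 to 1192 TPM over the apical libraries and 28.8 to 111 in the elongation zone, a level that would have placed it among the most abundant members. EES04223 had 15.8 to 57.9 TPM over the apical libraries and 2.48 to 5.12 in the elongation zone, and KXG24404 had 5.48 to 9.20 and 0.69 to 1.77. At the lower limit of 2 TPM the members nearest to it were EES13270, EER91948 and OQU75643, with a lowest apical level of 2.34, 2.38 and 2.38 TPM, and the first outside were EER99405, EES11244 and EER94465, at 1.84, 1.83 and 1.65 TPM. EES11244 had 15.2 and 13.1 TPM in the root apex at SP and 7.52 and 3.81 at LP, 5.53 and 1.83 in the lateral apex and at most 0.267 in the elongation zone, so it was the lateral LP library that kept it out.

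EER99405, of gene SORBI_3002G307900, is annotated. It is matched to Arabidopsis AT1G30870, a class III peroxidase, a family of secreted haem enzymes of the cell wall. It had 1.84 and 2.26 TPM in the root apex at SP, 6.59 and 4.15 at LP, 3.43 and 3.50 in the lateral apex and 0 to 0.14 in the elongation zone. It was named because it met the fold condition and missed only the lower limit, so its difference between apices and elongation zone is also a description. It is counted among the 4 transcripts of the uptake and differentiated-root list that were called higher in the apices. The others, by log2 fold change, were EES05808, an oligopeptide transporter by its InterPro name (2.14), EES15166, matched to a copper/zinc superoxide dismutase (1.31), and EES17674, a glycoside hydrolase of the chitinase family 19 (2.38). Those lower in the apices were EES09082 and KXG39588, both matched to the asparagine synthetase AT3G47340 (-3.23 and -1.14), and OQU92441, a sucrose synthase (-3.76). A fitted mean hides how 2 of these were spread. EES05808 had 187 and 253 TPM in the root apex at SP and 284 in the lateral apex at SP, above 13.6 and 18.9 in the elongation zone, but at LP its 2.34 and 1.54 TPM in the root apex lay below the 5.58 and 8.12 of the elongation zone, with 9.004 in the lateral apex. OQU92441 had 98.7 to 264 TPM in the 4 root apex libraries, all above the 12.1 to 93.9 of the elongation zone, and 1.10 and 0 in the lateral SP and LP libraries, so its fitted value is low through the lateral apex.

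The 53 transcripts were shorter than other transcripts of the apices, a property the rule did not use directly. Their median length was 1247 bases (quartiles 975 and 1681, range 591 to 3140), against 1784 bases (quartiles 1235 and 2508) for the 11893 at 2 TPM or more in every apical library. Of the 53, 15 (28.3%) were under 1000 bases and 1 (1.89%), EER90980, was over 3000 bases, against 15.5% and 15.5% of the 11893. The 171 transcripts chosen by the reverse rule, at least 2 TPM in every elongation zone library and at least 3 times the highest apical library, had a median of 1677 bases (quartiles 1216 and 2250). Length also moved with detection in the lateral libraries: of transcripts at 2 TPM or more in all 4 root apex libraries, those under 1000 bases reached 2 TPM in both lateral libraries in 82.6% of cases, and those of 3000 bases or more in 64.5%. In lateral root apex SP alone these shares were 84.0% and 67.6%, and in lateral root apex LP 94.3% and 85.6%. The 11893 had passed the same limit of 2 TPM in both lateral libraries. The part of this difference in the length of the 53 was not tested.

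**Figure D4:**
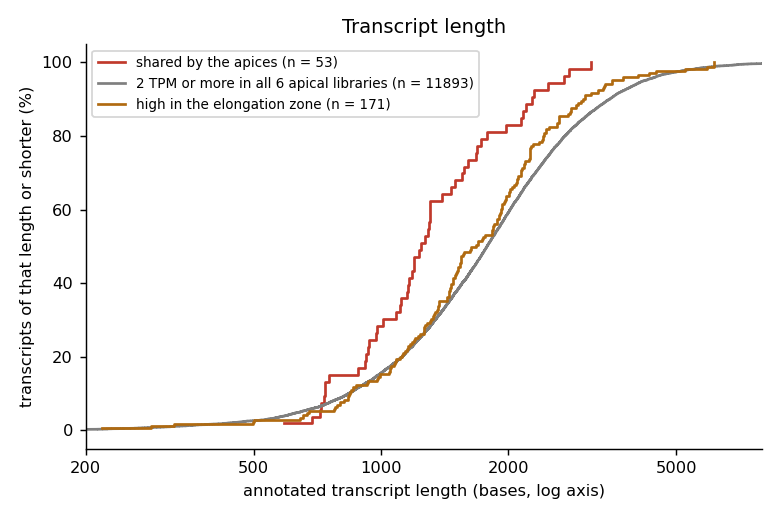
Share of transcripts (vertical, percent) at or below each annotated length in bases (horizontal, log axis), for the 53 transcripts shared by the apices (red), the 11893 at 2 TPM or more in all 6 apical libraries (grey) and the 171 high in the elongation zone (orange). The red curve lies to the left of the others over most of its range, with a median of 1247 bases against 1784 and 1677.

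The spread between replicates was similar to that of other transcripts. The median SD of log2(TPM + 1) between replicates was 0.157 in the root apex at SP and 0.296 at LP for the 53, and 0.13 and 0.315 for the 11893. In the elongation zone it was 0.207 at SP and 0.338 at LP, against 0.17 and 0.387. The LP replicates differed more than the SP replicates in both regions and both sets.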

How the data were processed

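The authors trimmed poly(A) RNA-seq reads with Trimmomatic and quantified transcripts with kallisto. The deposited tables give estimated counts (not normalized) and TPM for 47110 sorghum transcript IDs per library. The study's methods name the release of the sorghum genome and the version of rStudio, and no version of Trimmomatic or kallisto was found in them. Bisulfite tables of cytosines compared between LP and SP by the authors hold their own differences and p-values and were not used, and ChIP-seq was not analysed here.

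The rule was applied to TPM. Estimated counts were rounded and fitted with edgeR 4.0.16 (R 4.3.3; TMM, filterByExpr by group, quasi-likelihood test) to all 10 libraries as 6 groups, keeping 33039 transcripts (70.1%), among them all 53, with 4 residual degrees of freedom and common dispersion 0.346. P-values were adjusted by Benjamini-Hochberg over all tested transcripts (threshold 0.05). Each SE is |log2 fold change| divided by √F. Lateral groups hold 1 library each, so their spread is taken from the replicated groups. The labels do not say whether replicates came from separate cultures, so p-values measure the spread between these libraries. Floors cover counting error only, as reads without molecular identifiers are not independent molecules.

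DESeq2 1.42.0, its size factors in edgeR, no filter, a replicate block, limma 3.58.1 on log2(TPM + 1) and leaving out each library were the alternatives. On simulated counts of 31478 transcripts, 16-fold changes were found at 81% (root apex), 29% (lateral root apex) and 85% (both apices), and 4-fold changes at 8%, 0% and 26%, with 4.3%, 12.1% and 5.13% false among the calls. Members and lists were chosen with earlier results of these data known.

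Named transcripts were those with the 10 highest ratios, the 10 highest median apical TPM, a paired gene, an LP call, 0 TPM in all elongation zone libraries, the 3 last inside and first outside each threshold, and the 5 largest rises and falls over both apices that went one way in both same-numbered root apex comparisons and in the lateral apex, besides list transcripts that were called and others named as chosen after their values were seen. Genes and domains come from the study's supplementary lists, the Arabidopsis list in part (1999 rows read, 393 left out). None of the 53 IDs (0) matched the RefSeq gene table.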

Additional observations from a re-analysis of the deposited data

How the results depend on the processing

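The number of transcripts was 109 at a fold of 2, 24 at 5 and 31 at a minimum of 5 TPM, and 53 to 98 with 1 library left out, the last without elongation zone LP replicate 2. With CPM, which is not per length, it was 64, of which 43 were shared with the 53. DESeq2 called 2 of the 53 for LP in the root apex, 7 in the lateral apex, 3 in the elongation zone, 5 over both apices, 6 for the lateral minus primary response and 5 for the elongation zone minus both apices. In the same order it called 3.5%, 11.9%, 6.6%, 11.4%, 6.63% and 6.96% of all tested transcripts. limma on log2(TPM + 1) called 1 in the lateral apex (2.79% of all tested) and 2 over both apices (1.9%). For the elongation zone minus both apices limma called 1 (0.158%) and no filter 1 (0.619%). With 1 library left out the counts were 0 to 1, 0 to 5, 0 to 6, 0 to 7, 0 to 1 and 0 to 12 in the order given for DESeq2. For lateral against root apex, whose levels the rule bounds, DESeq2 called 18 and leaving out 1 library gave 0 to 19 against 5, which is a description. The highest of these came without elongation zone LP replicate 1 or replicate 2, and the cause was not tested. In those fits the share of all tested transcripts called was also above that of the main fit. Between lateral and root apex DESeq2 called 22.5% of all tested transcripts.

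Of the dividing-cell and chromatin list, DESeq2 called 7 lower in the apices, limma 1 higher, and leaving out 1 library gave 1 to 4 higher and 1 to 9 lower. With the 53 transcripts left out of that list, an alternative added after the data were seen, 1 was higher. Of the uptake list, DESeq2 called 6 and limma 5 lower in the apices, and leaving out 1 library gave 3 to 5 higher and 0 to 5 lower. With the replicate block 0 of the 53 were called for LP in the elongation zone and 1 of the dividing-cell list higher in the apices, and the counts of the other comparisons stayed within 1.5 times. Over all tested transcripts same-numbered libraries did not deviate together in the root apex (correlation -0.0178) and did so weakly in the elongation zone (0.171). The main tests therefore have no block, and the numbers served only to choose which transcripts are named. This reason does not cover the 53 in the elongation zone, where their median log2 ratio of replicate 2 to replicate 1 was 0.59 at SP and 0.45 at LP. The block follows replicate number over all regions. Fragment length splits the libraries otherwise, with both lateral libraries beside elongation zone replicate 2, so no alternative adjusts for it. No alternative turned the direction of a named log2 fold change that was recomputed.

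The lateral apex has 1 library per level, and at that depth of replication 29% of simulated 16-fold and 0% of 4-fold changes were found there, so an uncalled lateral response is not shown to be absent. The results rest on 4 residual degrees of freedom, and 1 of 53 transcripts has a gene name.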
